A study of Mus musculus with 9 samples.

Results

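The cell cycle and DNA replication genes described here are 47 mouse genes that act in the copying of DNA and in the division of the cell. They were listed by name, and each gene was read from the probe set that carried its symbol alone and had the highest mean over the 9 arrays of the study. Of the 47 genes, 46 had such a probe set, among 18193 genes that did. Ccnb1, the gene of cyclin B1, had none and is not analysed here. The 45 genes whose mean level reached the filter of 5.31 on the log2 scale were tested, among 10916 genes tested in all. Tyms, the gene of thymidylate synthase, was under that filter. It stood at 3.30, 4.76 and 5.34 on the lymph node arrays of IKDC, NK and CDC, 4.92, 4.64 and 4.94 on their spleen arrays 1 and 3.18, 4.73 and 4.47 on their spleen arrays 2, and no difference is given for it.

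The study profiled 3 cell types by Affymetrix array: interferon-producing killer dendritic cells (IKDC), natural killer cells (NK) and conventional dendritic cells (CDC). All were sorted directly from naive BALB/c mice that were 6 to 8 weeks old, with no treatment, and the 6 groups were lymph node IKDC, NK and CDC with 1 array each and spleen IKDC, NK and CDC with 2 arrays each, numbered 1 and 2 in their titles. The sort gates, the sex of the mice and the animals or pools behind each array are not given in the sources used here. Since nothing says that arrays 1 and 2 came from separate animals, p-values measure only the spread between these samples, which may be technical.

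A dividing cell first licenses its replication origins by loading the MCM helicase with the help of Cdc6 and Cdt1, then copies its DNA with polymerases held on by the PCNA clamp, and then separates the copies on a mitotic spindle under the control of cyclin-dependent and Aurora kinases. Transcription factors of the E2F family are known to switch on the replication genes at the entry into S phase, and a complex that reads the CHR element is known to switch on the mitotic genes later, often beside CCAAT boxes bound by NF-Y. Most NK cells and dendritic cells of an unchallenged mouse are not dividing, and transcripts of these genes are widely used as a readout of the fraction of cells in cycle.

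Promoter windows of 4 members are shown for the sequence elements through which genes of this kind are known to be controlled. Each is the 250 bases before the gene's start from RefSeq, build GRCm38.p6, written 5′ to 3′ on the strand of the gene, and capitals mark the matches to the E2F, CHR and CCAAT elements given below, none of which overlap (ATTGG is CCAAT read on the other strand). They were taken in order of mean level among the windows that hold a match, 1 for each role, and windows that reach into the gene as annotated were passed over, which removed Mcm7, Mcm5, Mki67 and Top2a. The window of Cdc20, an activator of the anaphase-promoting complex, lies at chr4:118437344-118437593 on the minus strand and holds 1 CHR element and 2 CCAAT boxes. Mcm6, a subunit of the replicative helicase, has its window at chr1:128359706-128359955 on the minus strand, with 2 E2F elements and 2 CCAAT boxes. Rrm2, the regulated subunit of ribonucleotide reductase, has a window at chr12:24708004-24708253 on the plus strand with 1 CCAAT box. The window of Pcna, the sliding clamp, lies at chr2:132253181-132253430 on the minus strand and holds 1 CCAAT box.
Cdc20: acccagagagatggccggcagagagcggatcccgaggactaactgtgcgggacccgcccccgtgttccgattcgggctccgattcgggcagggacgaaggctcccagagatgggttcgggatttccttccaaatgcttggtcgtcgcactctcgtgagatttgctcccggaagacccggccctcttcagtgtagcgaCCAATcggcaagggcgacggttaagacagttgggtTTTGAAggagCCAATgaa
Mcm6: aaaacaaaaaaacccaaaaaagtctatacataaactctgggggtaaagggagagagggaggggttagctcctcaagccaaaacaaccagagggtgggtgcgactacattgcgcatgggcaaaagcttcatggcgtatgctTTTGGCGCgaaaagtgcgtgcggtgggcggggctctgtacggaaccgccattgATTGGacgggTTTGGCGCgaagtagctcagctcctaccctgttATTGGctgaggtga
Rrm2: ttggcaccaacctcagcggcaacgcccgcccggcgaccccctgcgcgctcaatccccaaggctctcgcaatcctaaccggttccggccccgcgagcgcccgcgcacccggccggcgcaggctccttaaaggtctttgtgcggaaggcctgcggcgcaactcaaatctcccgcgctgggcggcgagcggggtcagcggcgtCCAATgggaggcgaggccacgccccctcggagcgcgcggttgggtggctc
Pcna: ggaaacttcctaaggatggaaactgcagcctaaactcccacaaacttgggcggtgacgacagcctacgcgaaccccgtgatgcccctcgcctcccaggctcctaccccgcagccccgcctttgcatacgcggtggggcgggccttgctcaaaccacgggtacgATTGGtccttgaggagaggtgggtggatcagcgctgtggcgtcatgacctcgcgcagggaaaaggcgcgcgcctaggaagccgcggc

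The RefSeq table held promoters of 40 of the 47 members, and 1 window a gene was searched on both strands for TTTGAA (the CHR element), CCAAT, and TTTCCCGC or TTTGGCGC (the E2F element). A CCAAT box was in 75% of members' windows, 35.8% of the windows of 8913 tested genes and 34.5% of the windows of all 27025 genes. An E2F element was in 12.5% of members' windows, 2.69% of tested genes' windows and 1.35% of all. All 5 members with one (Pola1, Cdc6, Mcm5, Mcm6 and Mcm7) belong to the 16 windows of replication, nucleotide synthesis and E2f1, and none of the 24 windows of mitosis genes held one. The CHR element was in 22.5% of members' windows, 10.2% of tested genes' windows and 16.3% of all, and in 29.2% of the mitosis genes' windows (Mki67, Top2a, Ccnb2, Cdk1, Cdc20, Ube2c and Kif11). A match is a description of these letters in this window and was not tested as a site.

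Levels below are log2 normalized intensities, differences are on the log2 scale with the standard error from limma, and a gene is called changed where its p, adjusted over all 10916 genes, is under 0.05. Ncr1, the NK receptor NKp46, was at 10.97 or above on every IKDC and NK array and at 6.22 or below on every CDC array. Zbtb46, which marks the conventional dendritic cell lineage, was at 8.63 or above on the CDC arrays and at 6.20 or below on the others. On the lymph node IKDC array, Siglech, a receptor of plasmacytoid dendritic cells, was at 10.78, against 6.51 or below on the other 8. Of the 9 conventional dendritic cell markers measured, Itgax (CD11c) was at 11.32 on spleen NK array 1 and 7.27 on spleen NK array 2, and H2-Aa, an MHC class II gene, at 10.89 and 6.62. Batf3 was at 5.70 and 4.90, and the other 6 differed less, with Zbtb46 at 4.86 and 5.24, Sirpa at 5.55 and 5.77 and Xcr1 at 4.77 and 5.03 on the same arrays. On the IKDC arrays Itgax was at 10.88 to 11.24 and H2-Aa at 10.90 to 12.01. On the CDC arrays they were at 11.40 to 12.37 and 12.00 to 12.84. Every other marker of that list was at 8.69 or below on the IKDC arrays. The part of these cell type markers in the members' levels was not tested. The median intensity was 23.4 to 41.3 units over the 9 arrays. Same-numbered spleen arrays stood apart together. Levels of the X-inactivation RNA Xist were 6.02 to 6.36 on the 3 spleen arrays 1, against 11.43 to 12.49 on the 3 spleen arrays 2 and the 3 lymph node arrays. The Y-linked gene Eif2s3y was at 8.84 to 9.40 on the spleen arrays 1, against 2.76 to 4.28 on the spleen arrays 2 and the lymph node arrays. Spleen arrays 1 thus had the sex-linked levels of male cells and the rest those of female cells. Array number and sex cannot be told apart in these spleen arrays. The 3′ to 5′ signal ratio of the BioC spike was 0.771 to 0.81 on spleen arrays 1, against 1.13 to 1.22 on spleen arrays 2, and the same ratio of actin was 1.69 to 3.23 on spleen arrays 1 and 1.11 to 1.62 on spleen arrays 2. On the lymph node arrays the ratio was 0.83 to 0.852 for BioC and 1.39 to 1.89 for actin.

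The comparison with the most called cell cycle and DNA replication genes was that between the spleen arrays numbered 1 and those numbered 2, in all 3 cell types at once. In a fit on the 6 spleen arrays with cell type as a term, 26 of the 45 members were called, all higher on spleen arrays 1, where 1.46% of all genes were called and 1.15% were called higher. This fit takes the 3 cell types as the repeats of each number. Its p-values therefore measure how far the difference varied between cell types, not between animals or between sets of arrays. The members' differences had a median of 1.35 and ran from 0.31 (Pcna) to 2.44 (Ube2c), against a median of -0.0013 over all genes. All 3 spleen arrays 1 lay above all 3 spleen arrays 2 in 39 of 45 members, a pattern found in 9.54% of all genes. The exceptions were Kif23, Mcm2, Racgap1, Rrm1, Stmn1 and Tacc3. In these bulk samples, fewer dividing cells and less of these RNAs per cell cannot be told apart.

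The median of arrays 1 minus arrays 2 over the members was 1.70 in IKDC, 1.39 in NK and 1.35 in CDC. The array 1 level exceeded the array 2 level by more than 2-fold in 39 members in IKDC, 30 in NK and 34 in CDC, which 10.6%, 4.99% and 5.6% of all genes did. Over the 3 cell types, array 2 exceeded array 1 in Mcm2 in CDC alone, with 9.42 on array 1 and 10.05 on array 2. The calls of all genes rest on both NK arrays: 159 of 10916 genes were called with all 6 spleen arrays, but 1 without spleen NK array 1 and 2 without spleen NK array 2. None of the 45 members was called in either fit, with smallest adjusted p of 0.0787 and 0.0772. Leaving out any other spleen array kept 10 to 17 of the 26 calls, and the members' median stayed at 1.38 to 1.49 whichever array was left out.

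**Figure D1:**
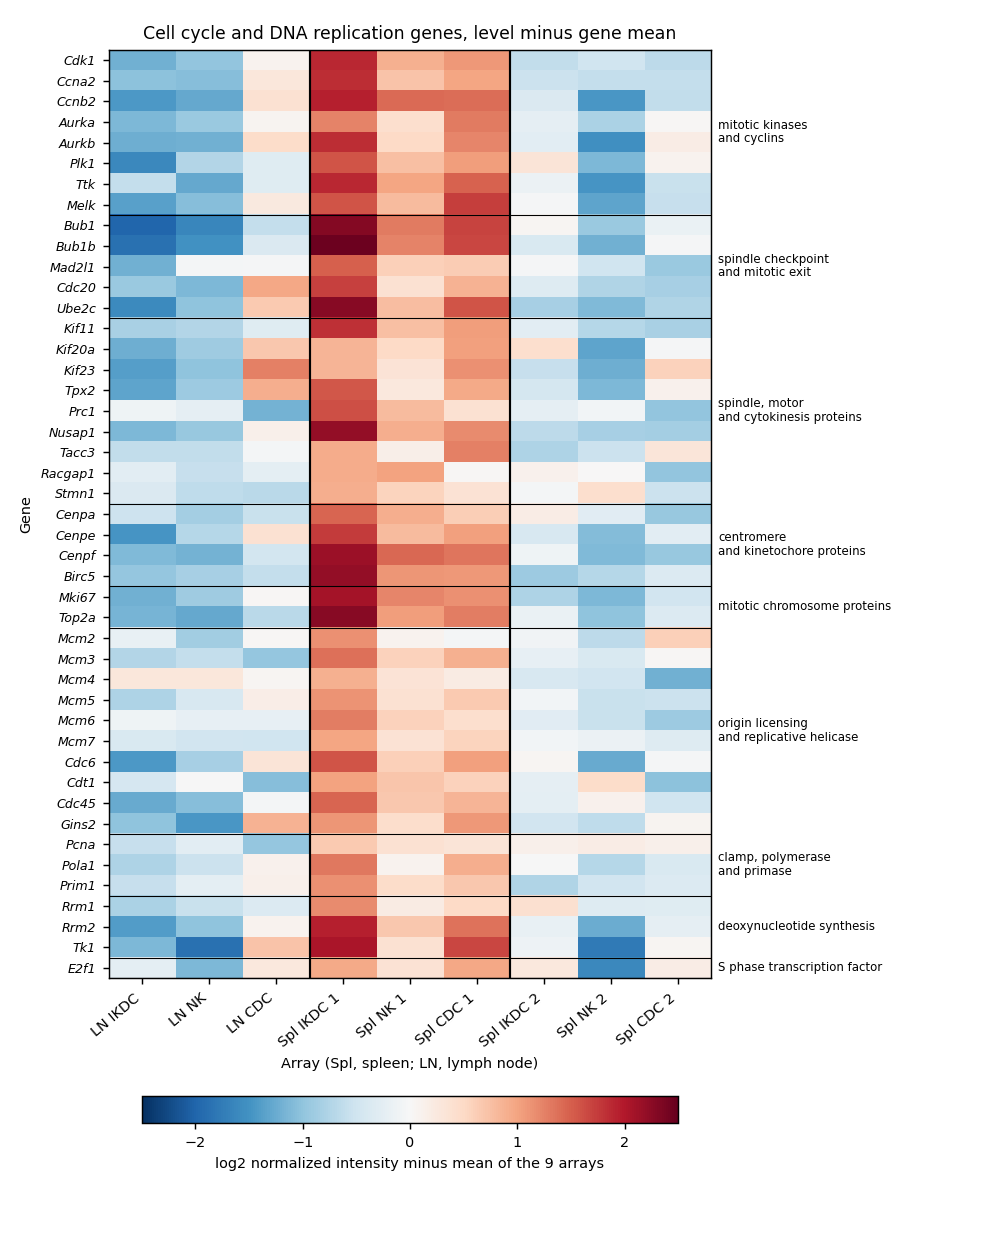
Level of the 45 tested cell cycle and DNA replication genes (rows, grouped by role) on the 9 arrays (columns), as log2 normalized intensity minus the gene's mean over the 9 arrays. The 3 spleen arrays 1 are above the gene mean for nearly every gene, while lymph node IKDC and NK are mostly below it.

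The mitotic kinases and cyclins start and steer mitosis, and 7 of the 8 tested were called, with a median difference of 1.83. Cdk1, the kinase that drives entry into mitosis, stood at 6.46, 6.69 and 7.76 on the lymph node arrays of IKDC, NK and CDC, 9.56, 8.56 and 8.76 on their spleen arrays 1 and 7.05, 7.17 and 7.02 on their spleen arrays 2. The spleen arrays 1 did not overlap the spleen arrays 2, and the difference was 1.88 ± 0.25 (3.69-fold, adjusted p = 0.0277). Ccnb2, the gene of a cyclin partner of Cdk1, stood at 6.18, 6.34 and 8.01 on the lymph node arrays of IKDC, NK and CDC, 9.56, 9.03 and 9.02 on their spleen arrays 1 and 7.25, 6.15 and 7.01 on their spleen arrays 2. It had the largest difference of the role, 2.40 ± 0.23 (5.27-fold, adjusted p = 0.0182), again with no overlap between spleen arrays 1 and 2. Aurka, the Aurora kinase of the spindle poles, stood at 5.64, 5.85 and 6.84 on the lymph node arrays of IKDC, NK and CDC, 8.01, 7.20 and 8.08 on their spleen arrays 1 and 6.55, 5.98 and 6.81 on their spleen arrays 2. It had the smallest difference of the role, at 1.32 ± 0.20 (adjusted p = 0.0398), and its spleen CDC array 1 was the highest of the 9.

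Aurkb, the Aurora kinase of the chromosomal passenger complex, stood at 5.71, 5.71 and 7.38 on the lymph node arrays of IKDC, NK and CDC, 8.77, 7.43 and 8.14 on their spleen arrays 1 and 6.67, 5.39 and 7.11 on their spleen arrays 2. Its NK arrays were the lowest within each spleen set, and arrays 1 minus arrays 2 was 1.72 ± 0.27 (adjusted p = 0.0427). Plk1, a kinase of mitotic entry and spindle assembly, stood at 4.68, 5.55 and 6.00 on the lymph node arrays of IKDC, NK and CDC, 7.86, 7.05 and 7.33 on their spleen arrays 1 and 6.61, 5.18 and 6.39 on their spleen arrays 2. Its difference of 1.35 ± 0.26 missed the threshold (adjusted p = 0.0635), although the spleen sets did not overlap. Ttk, a kinase of the spindle checkpoint, Melk, a kinase found in cycling cells, and Ccna2, the gene of cyclin A2, were called at 2.18, 2.00 and 1.77, with adjusted p of 0.0209, 0.0209 and 0.0309.

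All 5 genes of the spindle checkpoint and mitotic exit were called, with a median of 2.10. Ube2c, the ubiquitin-conjugating enzyme of the anaphase-promoting complex, stood at 5.31, 5.90 and 7.57 on the lymph node arrays of IKDC, NK and CDC, 9.19, 7.68 and 8.49 on their spleen arrays 1 and 6.08, 5.80 and 6.16 on their spleen arrays 2. Its difference of 2.44 ± 0.28 was the largest of all members (5.42-fold, adjusted p = 0.0209). Mad2l1, a checkpoint protein that holds Cdc20 back, stood at 7.26, 8.42 and 8.42 on the lymph node arrays of IKDC, NK and CDC, 9.94, 9.06 and 9.10 on their spleen arrays 1 and 8.44, 7.96 and 7.54 on their spleen arrays 2. It had the smallest difference of the role, 1.39 ± 0.19 (adjusted p = 0.0283), and the lymph node IKDC array was the lowest of the 9.

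Bub1, a checkpoint kinase, stood at 4.48, 4.83 and 5.86 on the lymph node arrays of IKDC, NK and CDC, 8.75, 7.75 and 8.14 on their spleen arrays 1 and 6.51, 5.53 and 6.29 on their spleen arrays 2. Bub1b, which encodes the checkpoint protein BubR1, stood at 5.20, 5.55 and 6.70 on the lymph node arrays of IKDC, NK and CDC, 9.52, 8.30 and 8.74 on their spleen arrays 1 and 6.70, 5.87 and 7.05 on their spleen arrays 2. In both genes every lymph node array was below the spleen arrays 1, and arrays 1 exceeded arrays 2 by 2.10 ± 0.21 in Bub1 (adjusted p = 0.0182) and by 2.31 ± 0.26 in Bub1b (adjusted p = 0.0209). Cdc20, whose promoter is shown above, stood at 8.03, 7.84 and 9.93 on the lymph node arrays of IKDC, NK and CDC, 10.68, 9.35 and 9.83 on their spleen arrays 1 and 8.64, 8.22 and 8.12 on their spleen arrays 2. Its difference was 1.63 ± 0.22 (adjusted p = 0.0277), and the lymph node CDC array lay among the spleen arrays 1.

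Among the 9 spindle, motor and cytokinesis genes, 2 were called and the median was 1.17. Nusap1, which bundles microtubules at the chromosomes, stood at 6.80, 6.98 and 8.05 on the lymph node arrays of IKDC, NK and CDC, 10.12, 8.83 and 9.10 on their spleen arrays 1 and 7.26, 7.08 and 7.07 on their spleen arrays 2. The difference was 2.21 ± 0.25 (4.63-fold, adjusted p = 0.0209), and the lowest spleen array 1 (NK, 8.83) was above the highest spleen array 2 (IKDC, 7.26). Kif11, the motor that pushes the spindle poles apart, was also called, at 1.80 ± 0.23 (adjusted p = 0.0259). Stmn1, which encodes the microtubule destabilizer stathmin, stood at 11.37, 11.10 and 11.07 on the lymph node arrays of IKDC, NK and CDC, 12.65, 12.30 and 12.11 on their spleen arrays 1 and 11.70, 12.16 and 11.21 on their spleen arrays 2. Its difference was the smallest of the role, 0.66 ± 0.19 (adjusted p = 0.125), and NK array 2 lay above CDC array 1.

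Kif23 and Racgap1 encode the partners of the centralspindlin complex of cytokinesis. Kif23 stood at 6.80, 7.17 and 9.44 on the lymph node arrays of IKDC, NK and CDC, 9.03, 8.53 and 9.32 on their spleen arrays 1 and 7.62, 6.97 and 8.77 on their spleen arrays 2. Racgap1 stood at 7.50, 7.20 and 7.53 on the lymph node arrays of IKDC, NK and CDC, 8.70, 8.78 and 7.80 on their spleen arrays 1 and 7.88, 7.79 and 6.78 on their spleen arrays 2. The pair did not share an order: in each set Kif23 was highest in CDC, whereas Racgap1 was lowest in CDC on both spleen sets. Prc1, which cross-links the microtubules of the spindle midzone, stood at 7.88, 7.78 and 6.82 on the lymph node arrays of IKDC, NK and CDC, 9.61, 8.79 and 8.38 on their spleen arrays 1 and 7.78, 7.92 and 7.02 on their spleen arrays 2. Tacc3, which stabilizes spindle microtubules, stood at 6.56, 6.56 and 7.13 on the lymph node arrays of IKDC, NK and CDC, 8.11, 7.32 and 8.44 on their spleen arrays 1 and 6.41, 6.64 and 7.49 on their spleen arrays 2. Prc1 was lowest in CDC in all 3 sets, and Tacc3 was highest in CDC in all 3. Arrays 1 minus arrays 2 was 1.17 in Kif23, 0.94 in Racgap1, 1.35 in Prc1 and 1.11 in Tacc3, with adjusted p of 0.071, 0.0663, 0.0522 and 0.0797. Tpx2, which activates Aurora A on the spindle, and Kif20a, a motor of cytokinesis, had differences of 1.40 and 1.10, with adjusted p of 0.0659 and 0.149.

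The 4 centromere and kinetochore genes were all called, with a median of 1.95. Cenpf, a kinetochore protein that accumulates in late interphase, stood at 6.17, 6.09 and 6.81 on the lymph node arrays of IKDC, NK and CDC, 9.40, 8.69 and 8.61 on their spleen arrays 1 and 7.16, 6.16 and 6.32 on their spleen arrays 2. Its difference was 2.35 ± 0.19 (5.11-fold, adjusted p = 0.0182), and the lymph node arrays and the spleen arrays 2 overlapped each other and lay below the spleen arrays 1. Cenpa, the histone H3 variant that marks centromeres, stood at 7.98, 7.66 and 7.95 on the lymph node arrays of IKDC, NK and CDC, 9.95, 9.40 and 9.11 on their spleen arrays 1 and 8.69, 8.21 and 7.56 on their spleen arrays 2. It had the smallest difference of the role, 1.33 ± 0.18 (adjusted p = 0.0277). Birc5, which encodes survivin of the chromosomal passenger complex, and Cenpe, a kinetochore motor, were called at 2.12 and 1.77, with adjusted p of 0.0415 and 0.0348.

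Mki67 encodes the Ki-67 protein that coats mitotic chromosomes and is a widely used histological marker of cycling cells. It stood at 8.63, 8.94 and 9.86 on the lymph node arrays of IKDC, NK and CDC, 11.91, 11.06 and 10.97 on their spleen arrays 1 and 9.06, 8.71 and 9.35 on their spleen arrays 2. The spleen arrays 1 lay more than 1 log2 unit above every other array, and the difference between the spleen sets was 2.27 ± 0.25 (4.83-fold, adjusted p = 0.0199). Top2a, the topoisomerase that untangles sister chromatids, stood at 8.17, 8.04 and 8.65 on the lymph node arrays of IKDC, NK and CDC, 11.60, 10.38 and 10.61 on their spleen arrays 1 and 9.17, 8.33 and 8.99 on their spleen arrays 2. It too had its 3 highest levels on spleen arrays 1, with a difference of 2.03 ± 0.20 (4.09-fold, adjusted p = 0.0182).

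**Figure D2:**
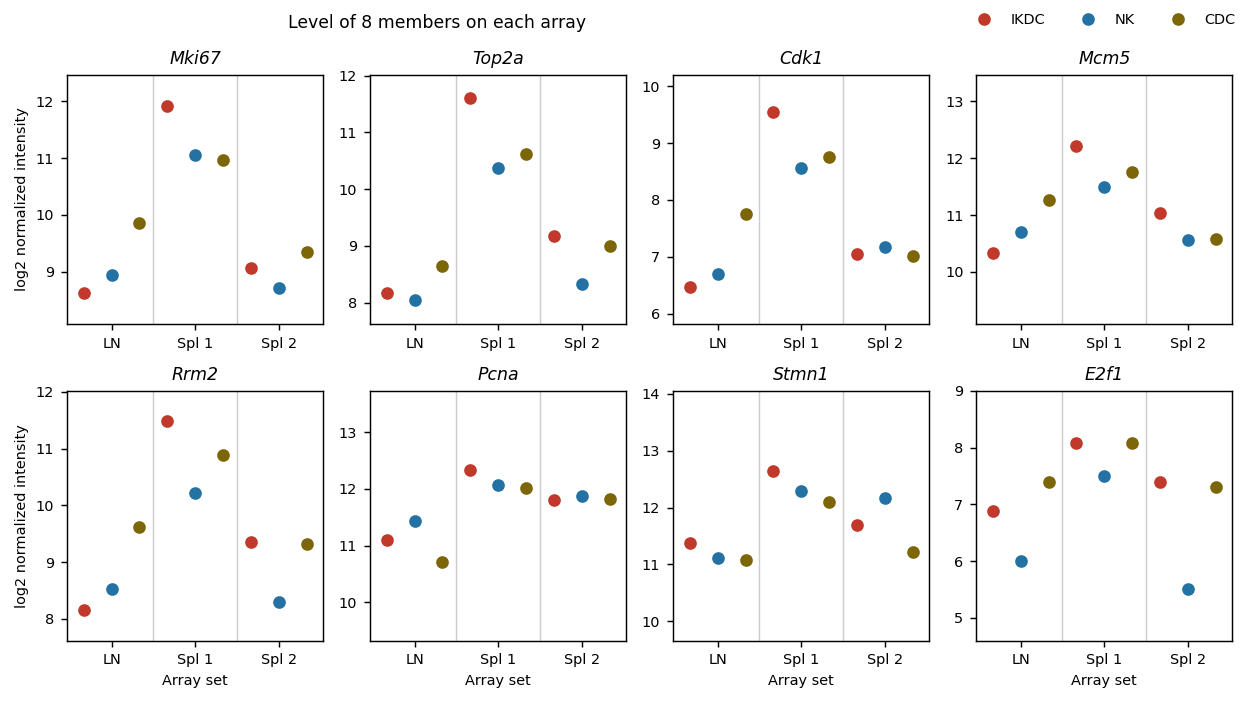
Level of Mki67, Top2a, Cdk1, Mcm5, Rrm2, Pcna, Stmn1 and E2f1 on each array, as log2 normalized intensity. Each point is 1 array, coloured by cell type, and every panel spans the same number of log2 units. Mki67, Top2a and Cdk1 separate the spleen arrays 1 from all other arrays, whereas Pcna and Stmn1 span a narrower range.

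Origin licensing and the replicative helicase gave 4 calls among 10 genes, with a median of 1.15. Mcm5, a subunit of the MCM helicase, stood at 10.33, 10.71 and 11.27 on the lymph node arrays of IKDC, NK and CDC, 12.22, 11.49 and 11.75 on their spleen arrays 1 and 11.04, 10.55 and 10.58 on their spleen arrays 2. Its difference was 1.10 ± 0.14 (2.14-fold, adjusted p = 0.0259), and the lymph node CDC array reached 11.27, below the lowest spleen array 1. Cdc6, which loads the helicase at origins, stood at 5.32, 5.93 and 7.09 on the lymph node arrays of IKDC, NK and CDC, 8.33, 7.35 and 7.79 on their spleen arrays 1 and 6.80, 5.51 and 6.73 on their spleen arrays 2. It had the largest difference of the role, 1.48 ± 0.24 (adjusted p = 0.0431). Mcm2, another subunit, stood at 9.27, 8.59 and 9.50 on the lymph node arrays of IKDC, NK and CDC, 10.60, 9.55 and 9.42 on their spleen arrays 1 and 9.39, 8.81 and 10.05 on their spleen arrays 2. It had the smallest difference, 0.44 ± 0.34 (adjusted p = 0.478), and its CDC array 1 was below its CDC array 2.

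Mcm4 stood at 10.64, 10.65 and 10.41 on the lymph node arrays of IKDC, NK and CDC, 11.25, 10.70 and 10.57 on their spleen arrays 1 and 9.96, 9.89 and 9.17 on their spleen arrays 2. Mcm6 stood at 9.79, 9.68 and 9.68 on the lymph node arrays of IKDC, NK and CDC, 11.17, 10.47 and 10.31 on their spleen arrays 1 and 9.61, 9.33 and 8.98 on their spleen arrays 2. Both subunits were called, at 1.17 ± 0.18 (adjusted p = 0.0384) and 1.34 ± 0.17 (adjusted p = 0.0244). On the probe sets used, every lymph node array lay above the spleen array 2 of its cell type in both. The second probe set of Mcm4 differed, with 0.37 for spleen arrays 1 minus 2. There, lymph node minus the mean of both spleen arrays was -1.09 in IKDC, -0.39 in NK and -1.23 in CDC. Mcm3 stood at 8.65, 8.78 and 8.41 on the lymph node arrays of IKDC, NK and CDC, 10.75, 9.95 and 10.27 on their spleen arrays 1 and 9.17, 9.0 and 9.40 on their spleen arrays 2, and its lymph node CDC array was the lowest of the 9. Cdt1, the other loader of the helicase, stood at 9.92, 10.33 and 9.28 on the lymph node arrays of IKDC, NK and CDC, 11.35, 11.04 and 10.90 on their spleen arrays 1 and 10.11, 10.80 and 9.30 on their spleen arrays 2. It was lower in CDC than in IKDC and NK in every set. Gins2, a subunit of the GINS complex that activates the helicase, stood at 6.30, 5.85 and 8.18 on the lymph node arrays of IKDC, NK and CDC, 8.40, 7.76 and 8.38 on their spleen arrays 1 and 6.83, 6.67 and 7.38 on their spleen arrays 2. The lymph node CDC array was within the range of the spleen arrays 1 in Gins2, while the other lymph node arrays were the lowest of the 9. The differences between spleen arrays 1 and 2 were 1.13 in Mcm3, 1.02 in Cdt1 and 1.22 in Gins2, with adjusted p of 0.0531, 0.105 and 0.0522. Mcm7, the sixth subunit, and Cdc45, which joins the active helicase, had differences of 0.82 and 1.21, with adjusted p of 0.0649 and 0.077.

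None of the 3 genes of the clamp, polymerase and primase was called. Pcna, the sliding clamp, stood at 11.10, 11.43 and 10.72 on the lymph node arrays of IKDC, NK and CDC, 12.34, 12.07 and 12.01 on their spleen arrays 1 and 11.81, 11.87 and 11.81 on their spleen arrays 2. The spleen arrays 1 were just above the spleen arrays 2, by 0.31 ± 0.14 (1.24-fold, adjusted p = 0.241), the smallest difference of all members, and all lymph node arrays were below both. Pola1 and Prim1, the catalytic subunits of DNA polymerase alpha and its primase, had differences of 1.15 and 1.28, with adjusted p of 0.0566 and 0.0594.

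Deoxynucleotide synthesis gave 2 calls among 3 tested genes. Rrm2 stood at 8.15, 8.53 and 9.62 on the lymph node arrays of IKDC, NK and CDC, 11.49, 10.22 and 10.90 on their spleen arrays 1 and 9.36, 8.30 and 9.32 on their spleen arrays 2. Its spleen arrays 1 lay above all other arrays, and the difference was 1.88 ± 0.18 (3.67-fold, adjusted p = 0.0182). Tk1, the thymidine kinase of S phase, stood at 5.96, 5.21 and 7.79 on the lymph node arrays of IKDC, NK and CDC, 9.11, 7.47 and 8.75 on their spleen arrays 1 and 6.96, 5.31 and 7.13 on their spleen arrays 2. NK was the lowest cell type in every set, and arrays 1 exceeded arrays 2 by 1.97 ± 0.21 (3.93-fold, adjusted p = 0.0199). Rrm1, the constant subunit of ribonucleotide reductase, had a difference of 0.70 ± 0.16 (adjusted p = 0.0832). E2f1, an E2F factor of S phase entry, stood at 6.88, 6.01 and 7.40 on the lymph node arrays of IKDC, NK and CDC, 8.08, 7.50 and 8.09 on their spleen arrays 1 and 7.39, 5.51 and 7.31 on their spleen arrays 2. Its NK array 2 was the lowest of the 9, and arrays 1 minus arrays 2 was 1.15 ± 0.30 (adjusted p = 0.106).

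**Figure D3:**
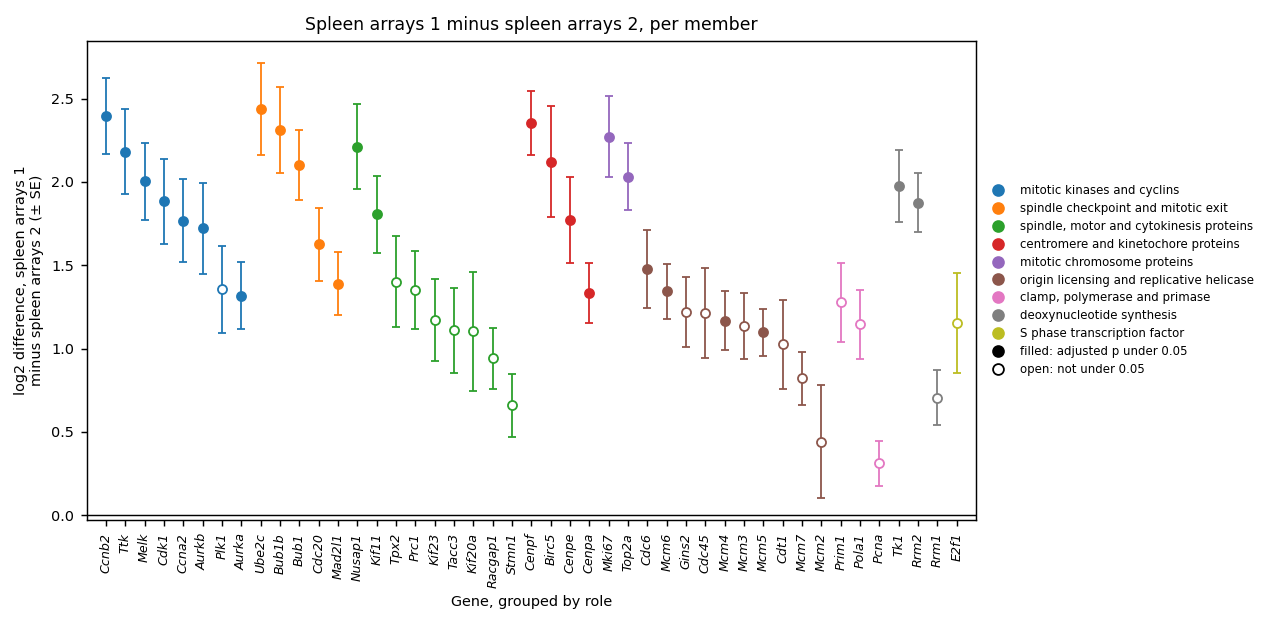
Difference of spleen arrays 1 minus spleen arrays 2 for each of the 45 tested members, on the log2 scale with the standard error from limma, grouped by role. Filled points are the 26 members with an adjusted p under 0.05. All 45 points lie above 0, and the genes of mitosis lie mostly above those of origin licensing.

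Other genes of the same processes were listed from general knowledge. Of 42 further mitosis genes tested, 25 were called higher on spleen arrays 1 and none lower, with a median of 1.62. The largest called were Hmmr, a spindle-associated hyaluronan receptor, at 2.58, Cdca8, the passenger protein borealin, at 2.49, and Cdca5, the cohesion protein sororin, at 2.42, with adjusted p of 0.0199, 0.0145 and 0.0182. The transcription factors of this programme gave smaller values: Foxm1 had a difference of 0.38 (adjusted p = 0.34) and Mybl2 one of 1.17 (adjusted p = 0.0803). Of 40 further replication genes, 4 were called higher, with a median of 0.69. They were Pole (1.64), a replicative polymerase, Uhrf1 (1.64), which carries DNA methylation through replication, Asf1b (1.5), a histone chaperone, and Lig1 (1.5), the ligase of Okazaki fragments.

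Of 16 genes of the replication checkpoint and repair, 3 were called higher: Rad51ap1 (2.16), Clspn (1.88) and Chek1 (1.56). Of 13 chromatin and tubulin genes, H2ax, the histone variant of damage signalling, was called at 1.38, while Hmgb2 had a difference of 0.39 (adjusted p = 0.18). None of 14 genes of growth and ribosome biogenesis was called by limma, with a median of 0.41, and 5 had an unadjusted p under 0.05. The share of all genes at that unadjusted p is not given here. Myc had a difference of 0.25 (adjusted p = 0.602).

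The 28 genes of G1 control and quiescence did not move as 1 group and had a median of 0.07. Ccne1, the gene of the cyclin that drives S phase entry, stood at 7.82, 7.65 and 7.81 on the lymph node arrays of IKDC, NK and CDC, 10.18, 9.28 and 9.55 on their spleen arrays 1 and 8.81, 7.52 and 7.30 on their spleen arrays 2. It was called higher on spleen arrays 1, by 1.79 ± 0.22 (adjusted p = 0.0244), as was E2f8, a late repressor of E2F targets, by 1.94 (adjusted p = 0.0267). Cdkn2b, the gene of the CDK inhibitor p15, was called lower, at -2.30 (adjusted p = 0.0383). Cdkn1b, the gene of the inhibitor p27 of resting cells, had a difference of -0.61 (adjusted p = 0.18). The D cyclin genes Ccnd2 and Ccnd3 had differences of -0.54 and -0.20, with adjusted p of 0.113 and 0.616.

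**Figure D4:**
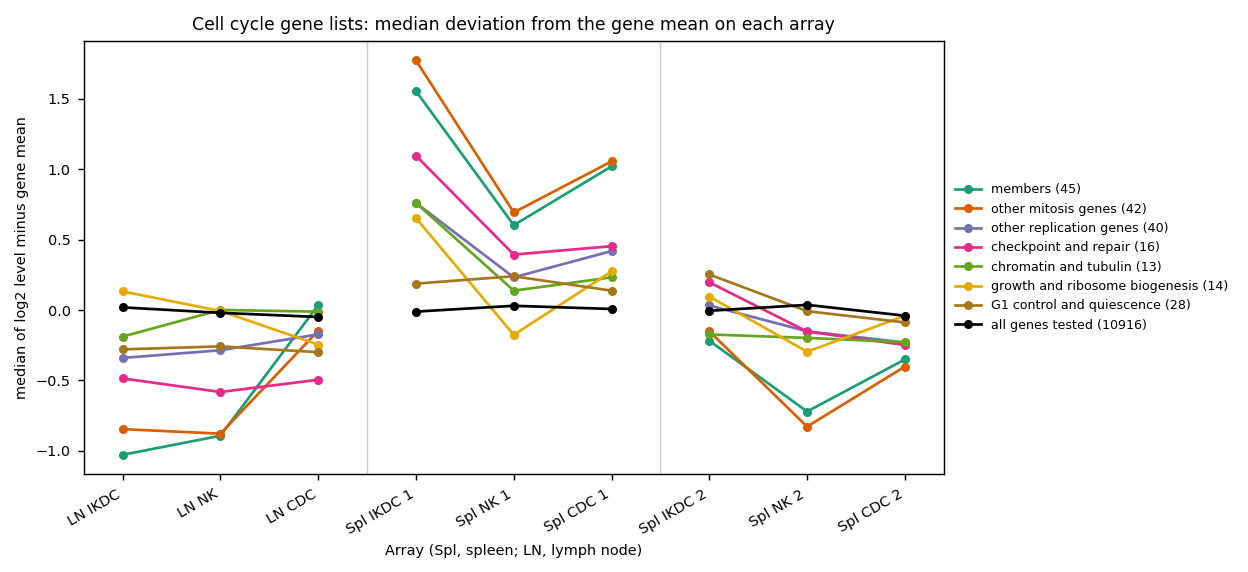
Median over the genes of each list of the log2 level minus the gene's mean over the 9 arrays, by array, with the number of tested genes in brackets. The members and the other mitosis genes share 1 shape across the arrays, highest on spleen IKDC array 1, while the median over all genes stays near 0.

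Other genes moved with the spleen array number. Of the 159 genes called, 26 were members, 36 were in the lists above and 97 were in neither. The 97 also hold genes of cell division that the lists did not name, such as Cenpk, Cenpn, Kif18b and Ncapg2. Outside all lists, the 5 largest called higher on spleen arrays 1 were Eif2s3y, a Y-linked gene (5.10), Snap25 (5.04), Gpm6a (4.81), Ndrg4 (4.77) and Chgb (4.55), and the last 4 are known from neurons and neuroendocrine cells. The 5 largest called lower outside all lists were Xist (-5.81), Fn1, the gene of fibronectin (-2.55), Ch25h, a sterol hydroxylase induced by interferon (-2.51), Cav1, the gene of caveolin (-2.26), and Cd14 (-1.96). A list of 35 brain genes was written after these values were seen, so it is described by levels alone, and some of its genes, such as Mbp and Thy1, are also made by blood cells. Of the 32 on the array, 21 had all spleen arrays 1 above all spleen arrays 2. Their summed intensity was 14577.4, 4818.2 and 2338.5 on the lymph node arrays of IKDC, NK and CDC, 26221.6, 7718.0 and 3773.7 on the spleen arrays 1, and 2019.0, 2942.2 and 2090.6 on the spleen arrays 2.

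Spleen IKDC array 1 was the highest of the 9 in both the brain gene sum and the member median (9.56), and all spleen arrays 1 were above all spleen arrays 2 in both. The lymph node IKDC array had the second highest brain gene sum and the lowest member median, 6.80, while spleen CDC array 1, with a sum of 3773.7, had a member median of 8.76. Of 11 lists of blood cell markers, only Pacsin1 on the plasmacytoid list was called between spleen arrays 1 and 2. The tested macrophage and monocyte markers had a median of -1.06, with 0 of 8 called and 5 at an unadjusted p under 0.05, a level whose share over all genes is not given here. Sums of the macrophage and monocyte markers ran from 1973.9 to 8378.3 on spleen arrays 1 and from 3384.7 to 9090.7 on spleen arrays 2. Of the erythroid markers, 8 of 10 on the array, Klf1 and Gata1 among them, had a mean over the 9 arrays under the filter level. On spleen NK array 2, however, Klf1 was at 6.87, Gata1 at 6.96, Car1 at 7.80 and Hba-a1 at 5.54, all above that level. On spleen NK array 1 each of them was at 4.68 or below. Alas2, Epb42, Hbb-b2 and Slc4a1 were at 4.83 or below on both spleen NK arrays. The part of these genes, of the sex-linked genes and of the 3′ to 5′ ratios of BioC and actin in the members' difference was not tested.

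The cell types were then compared within each set of arrays, which share their number or organ. Median levels of the members were 6.80, 6.93 and 7.79 on the lymph node arrays of IKDC, NK and CDC, 9.56, 8.72 and 8.76 on their spleen arrays 1, and 7.39, 6.99 and 7.31 on their spleen arrays 2. IKDC thus had the highest median on both spleen sets and the lowest in lymph node. Over all genes the 9 medians were within 7.74 and 7.83.

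On spleen arrays 1, 44 of 45 members were above NK in IKDC, Racgap1 being the exception, and 47% of all genes were. On spleen arrays 2 it was 36 of 45 (49.2% of all genes), and in lymph node 15 of 45 (50.8%). The median of IKDC minus NK was -0.18 in lymph node, 0.82 on spleen arrays 1 and 0.48 on spleen arrays 2. The 6-group fit called none of the 45 members in spleen, where 0% of all genes were called, with 0 members at an unadjusted p under 0.05. The largest differences were 1.64 ± 0.99 in Tk1 and 1.31 ± 0.90 in Aurkb, both at adjusted p = 0.865, and at the other end stood Cdt1 (-0.19) and Stmn1 (-0.05).

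In lymph node the fit called none of 45 members for IKDC minus NK, where 0.055% of all genes were called, and again 0 had an unadjusted p under 0.05. Each lymph node group is 1 array, so its spread is borrowed from the spleen pairs. The extremes were E2f1 (0.88) and Tk1 (0.75) above, and Mad2l1 (-1.16) and Plk1 (-0.88) below, all at adjusted p = 1. With the array number as a block within spleen, none was called in either organ, against 0% of all genes in spleen and 0.412% in lymph node (0.403% higher). In spleen this fit had 24 members at an unadjusted p under 0.05, where 1275 of 10916 genes were. The spread behind the 6-group tests holds the difference between spleen arrays 1 and 2 given above. Without spleen IKDC array 1 the members' median turned to -0.18, and without spleen NK array 2 to -0.0625. Leaving out 1 array of a pair unbalances the array numbers, so the difference between spleen arrays 1 and 2 enters these 2 medians.

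IKDC were next set against CDC. In IKDC, 39 of 45 members lay above CDC on spleen arrays 1 (51.5% of all genes), 29 on spleen arrays 2 (52.7%) and 9 in lymph node (53.1%). The medians were -1.17 in lymph node, 0.62 on spleen arrays 1 and 0.18 on spleen arrays 2. No member was called in spleen, against 10.3% of all genes (4.75% higher, 5.6% lower), nor in lymph node, against 3.98% (2.09% higher, 1.89% lower). In spleen the extremes were Racgap1 (1.00 ± 0.52, adjusted p = 0.317) and Prc1 (1.00 ± 0.72, adjusted p = 0.483) above, and Kif23 (-0.72) and Tacc3 (-0.70) below. In lymph node they were Prc1 (1.06) and Cdt1 (0.64) above, and Kif23 (-2.64 ± 0.92, adjusted p = 0.212) and Ube2c (-2.26) below.

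With the array number as a block, 3 members were called higher in spleen IKDC than in CDC: Racgap1 (1.00, adjusted p = 0.0275), Cenpa (0.98, adjusted p = 0.0278) and Mad2l1 (0.87, adjusted p = 0.0472). This is near the 8.68% of all genes called higher there, and none was called lower, against 8.57%. In lymph node the block fit called 9 members lower in IKDC, against 4.18% of all genes: Kif23 (-2.64), Ube2c (-2.26), Tpx2 (-2.23), Cdc20 (-1.91), Gins2 (-1.88), Tk1 (-1.83), Ccnb2 (-1.82), Cdc6 (-1.77) and Rrm2 (-1.47). Their adjusted p ran from 0.0152 in Kif23 to 0.0496 in Cdc6. Plasmacytoid markers were high on the lymph node IKDC array, as given above, and their part in this difference was not tested. Without spleen IKDC array 1 the median in spleen turned to -0.60, and without spleen CDC array 2 to -0.34. The array numbers are unbalanced in these fits too, so the difference between spleen arrays 1 and 2 enters both medians.

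NK had the lowest level of the 3 cell types in 32 of 45 members on spleen arrays 1 (31.1% of all genes), 27 on spleen arrays 2 (29.1%) and 12 in lymph node (32.3%). The median of NK minus CDC was -0.92 in lymph node, -0.27 on spleen arrays 1 and -0.37 on spleen arrays 2. NK lay below CDC in all 3 sets in 24 of 45 members, as 27.2% of all genes did. No member was called in the 6-group fit, against 13.5% of all genes in spleen (6.54% higher, 6.97% lower) and 6.16% in lymph node (2.93% higher, 3.22% lower). The extremes were Tk1 (-1.55) and Kif23 (-1.29) below and Racgap1 (0.99) and Cdt1 (0.81) above in spleen, and Tk1 (-2.58) and Gins2 (-2.33) below and Cdt1 (1.05) and Prc1 (0.96) above in lymph node. Without spleen NK array 2 the median in spleen turned to 0.37, and without spleen CDC array 1 to 0.35. Both medians again hold the difference between spleen arrays 1 and 2, since the array numbers are unbalanced.

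The block fit called 4 members lower in spleen NK than in CDC, against 10.6% of all genes: Tk1 (-1.55, adjusted p = 0.00847), Kif23 (-1.29, adjusted p = 0.0258), Rrm2 (-0.85, adjusted p = 0.0384) and Aurkb (-1.22, adjusted p = 0.0479). It called Racgap1 higher (0.99, adjusted p = 0.0241), where 10.6% of all genes were called higher. In lymph node 5 members were called lower in NK, against 5.96% of all genes: Tk1 (-2.58), Gins2 (-2.33), Kif23 (-2.27), Cdc20 (-2.09) and Ccnb2 (-1.67), with adjusted p from 0.00843 to 0.0433. A fit that took the 3 sets as additive blocks called 7 members lower and 2 higher in NK than in CDC over both organs, against 12.8% and 14.2% of all genes. The 7 were Tk1 (-1.89), Kif23 (-1.62), Aurkb (-1.37), E2f1 (-1.26), Gins2 (-1.22), Aurka (-0.90) and Tacc3 (-0.84), and the 2 were Cdt1 (0.89) and Prc1 (0.76). For IKDC minus CDC the additive fit called Kif23 lower (-1.36), against 9.93% of all genes, and Prc1 higher (1.02), against 12%, and it called no member for IKDC minus NK, against 0%, with 5 members and 1158 of all genes at an unadjusted p under 0.05.

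**Figure D5:**
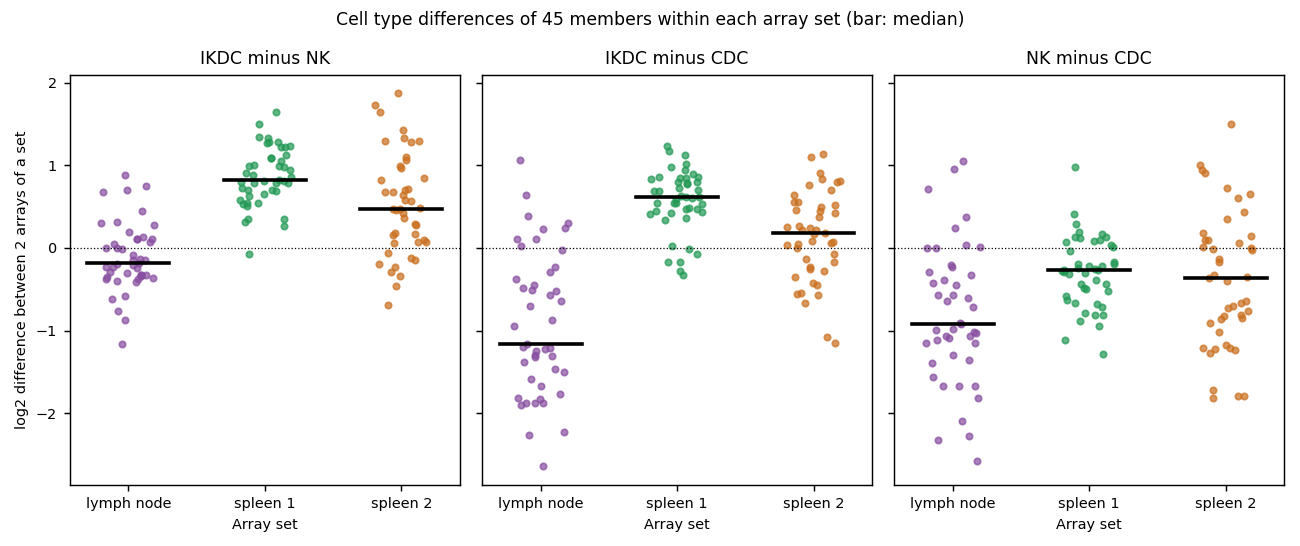
Difference between pairs of cell types within each set of arrays, on the log2 scale, with 1 point for each of the 45 members and a bar at the median. The left panel shows IKDC minus NK, the middle panel IKDC minus CDC and the right panel NK minus CDC. Medians of IKDC minus NK and of IKDC minus CDC are above 0 on both spleen sets and below 0 in lymph node.

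The highest of the 3 cell types differed between the organs. In lymph node CDC was the highest in 36 of 45 members (39.3% of all genes), the 9 others being Cdt1, Cenpa, Mcm3, Mcm4, Mcm6, Mcm7, Pcna, Prc1 and Stmn1, of which 6 belong to replication. On spleen arrays 1 IKDC was the highest in 38 of 45 (28.2% of all genes), and on spleen arrays 2 in 24 of 45 (30.9%). The lymph node minus spleen difference of IKDC minus NK had a median of -0.86, that of IKDC minus CDC -1.45 and that of NK minus CDC -0.35 over the members. The interaction tests called no member, against 0% of all genes, with 0 members at an unadjusted p under 0.05 in each. Without spleen IKDC array 1 the median for IKDC minus NK turned to 0.19. That for NK minus CDC turned to 0.34 without spleen NK array 1 and to 0.30 without spleen CDC array 2. The array numbers are unbalanced in each of these fits, so the difference between spleen arrays 1 and 2 enters these medians.

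The extremes of these interaction terms were Plk1 (-2.00) and Mad2l1 (-1.84) against Stmn1 (0.33) and Racgap1 (0.30) for IKDC minus NK. For IKDC minus CDC they were Cdc20 (-2.59) and Ube2c (-2.57) against Pcna (0.23) and Tacc3 (0.14). For NK minus CDC they were Cdc20 (-1.90) and Gins2 (-1.66) against Mcm3 (0.73) and Pcna (0.65).

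Lymph node arrays were last set against spleen arrays of the same cell type. The members' median of lymph node minus spleen was -1.63 in IKDC, -0.73 in NK and -0.24 in CDC. Against spleen array 1 the lymph node level was lower in 45 of 45 members in IKDC, 45 in NK and 42 in CDC, where 49.5%, 53.5% and 53.2% of all genes were. Against spleen array 2 the lymph node level was lower in 40 members in IKDC (50.1% of all genes), 25 in NK (54.9%) and 14 in CDC (49.9%). In Xist level the lymph node arrays are like spleen arrays 2, whereas in the BioC ratio they are nearer to spleen arrays 1. The median against spleen array 2 was -0.71 in IKDC, -0.08 in NK and 0.47 in CDC. So the lymph node IKDC array stood below either spleen IKDC array, and the lymph node CDC array stood between its spleen arrays in the members' median. By gene, 13 of 45 members were below both spleen CDC arrays on the lymph node CDC array, where 40.1% of all genes were, among them Pcna and Mcm3, which had their lowest level of the 9 there. Cdc20, Kif23 and Mcm2 were the members whose lymph node CDC level exceeded spleen CDC array 1.

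The 6-group fit called no member between the organs, against 0% of all genes in IKDC, 0% in NK and 0.0275% in CDC. In IKDC the largest were Bub1 (-3.15 ± 1.29, adjusted p = 0.719) and Bub1b (-2.90 ± 1.43, adjusted p = 0.774), and the values at the other end were Mcm4 (0.03) and Mcm6 (-0.60). In NK the extremes were Bub1 (-1.82) and Bub1b (-1.54) against Mcm4 (0.36) and Mad2l1 (-0.10), and in CDC Mcm3 (-1.42) and Bub1 (-1.36) against Cdc20 (0.96) and Mcm4 (0.54). With the array number as a block, 9 members were called lower in lymph node than in spleen IKDC, where 0.476% of all genes were. This fit takes the difference between spleen arrays 1 and 2 out of the spread, so the spread between sets of arrays does not enter these p-values, although lymph node and spleen are themselves separate sets. The 9 were Bub1 (-3.15), Bub1b (-2.90), Rrm2 (-2.27), Ccnb2 (-2.22), Top2a (-2.21), Cenpf (-2.11), Tk1 (-2.07), Mad2l1 (-1.93) and Rrm1 (-1.58), with adjusted p from 0.0192 in Bub1 to 0.048. On that array 6 of the 45 members were below the filter level, against none on either spleen IKDC array. In NK and CDC the block fit called no member, against 0.137% and 1.58% of all genes, with 20 and 8 members at an unadjusted p under 0.05, as were 1173 and 2261 of 10916 genes.

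Of the 46 members on the array, 34 had more than 1 probe set. In 26 of these, more than 1 reached the filter level, and in 25 of the 26 all probe sets at or above that level were higher on average on spleen arrays 1. The exception was Rrm1, whose second probe set gave -0.22 where the first gave 0.70. Some probe sets under that level pointed the other way, from -0.0875 in E2f1 to -1.12 on another probe set of Rrm1. Among them were -0.63 and -0.59 in Tyms, -0.52 in Kif23, -0.43 in Aurka and -0.30 in Mcm5 and Mcm6. Tpx2 agreed in sign only, with 1.40 on the probe set used and 2.06, 0.03 and 0.21 on the other 3.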

How the data were processed

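Affymetrix arrays of total RNA were analysed: 1 array each of lymph node IKDC, NK and CDC and 2 arrays each of spleen IKDC, NK and CDC, with groups taken from the sample titles. Biotinylated cRNA had been made from 6 µg of total RNA, per the labels' protocols. The deposited table gives linear intensities for 45101 probe sets, and the authors had scaled each array to a mean of about 150.001 between the 2nd and 98th percentiles, as read from the deposited values. The software and the scaling step are not given in the sources used here, and no scanner files were used.

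From the deposited intensities, log2(intensity + 6.49), an offset at the 20th percentile, was quantile normalized without 64 control probe sets. Of the other probe sets, 34945 carried 1 gene symbol, 932 several and 9160 none. Of those with 1 symbol, 34754 were matched to RefSeq by gene ID and took its symbol. Each gene took its single-symbol probe set with the highest mean, and genes whose mean level was under the 40th percentile (5.31) were left out, which kept 10916. limma 3.58.1 in R 4.3.3 (lmFit, eBayes with a trend) fitted the 6 groups, with 3 residual degrees of freedom, and spleen arrays 1 minus spleen arrays 2 on the 6 spleen arrays with cell type as a term, with 2. Tests were two-sided with Benjamini-Hochberg adjustment over all tested genes and a threshold of 0.05. Spleen IKDC minus NK in the 6-group fit and spleen arrays 1 minus spleen arrays 2 were tried on simulated data with independent noise on each array. The other contrasts and the block fits were not tried, and no deviation shared by same-numbered arrays was simulated. The number of arrays limits the precision.

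The labels do not say what the array numbers mark. The array 1 minus array 2 deviations of the cell types correlated across genes, with r of 0.485 between IKDC and NK, 0.529 between IKDC and CDC and 0.412 between NK and CDC. The number is therefore also given as a block, within spleen or as additive sets over all 9 arrays. Alternatives changed the scaling, the offset, the filter, the probe set rule, the spread and the arrays used.

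The members and the gene lists were chosen with earlier results of these data known. Named are members defining each role, those with the largest and smallest difference between spleen arrays 1 and 2 in each role, the 2 largest each way in every other comparison, any member called, up to 3 called genes of each further list beside a few regulators fixed by name, and the 5 largest called each way outside the lists with Xist and Eif2s3y. Printed promoter windows are those with a match. The exclusion of windows that overlap an annotated gene was added later. Lig1, the 4th called replication gene, is named beyond this rule. Promoters were searched with Python 3.11.15.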

Additional observations from a re-analysis of the deposited data

Results flagged for a closer look

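The members' median for IKDC minus NK was -0.18 between the lymph node arrays, against 0.82 on spleen arrays 1 and 0.48 on spleen arrays 2. It stood out because both spleen sets pointed one way and the lymph node set the other. For IKDC minus CDC the medians were -1.17 between the lymph node arrays, against 0.62 on spleen arrays 1 and 0.18 on spleen arrays 2, with the same split. IKDC lay above NK in both spleen sets and below NK in lymph node in 23 of 45 members, where 10.5% of all genes did, and above CDC in both spleen sets and below CDC in lymph node in 19 of 45, where 8.96% did. For Mki67, the proliferation marker, IKDC minus NK was -0.31 in lymph node, 0.85 on spleen arrays 1 and 0.36 on spleen arrays 2, whereas for Cdk1 it was -0.23, 0.99 and -0.12 in the same sets. The gene-wise limma interaction tests called no member for either contrast, with 0 members at an unadjusted p under 0.05, and each lymph node group is 1 array.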

How the results depend on the processing

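All 26 calls between spleen arrays 1 and 2 were kept on the deposited scale (30 called), after a shift to a common 75th percentile (35), with offsets of 1 or 32 units (26 each) and with a robust spread (28). Calls numbered 10 with no filter on dim genes, 11 with no trend in the spread, 15 with the mean of probe sets and 13 with the second probe set, where medians were 1.10 and 1.14, and 0 to 17 without single arrays (median 1.38 to 1.49). Leaving out a single array removed its pair from this fit, as given above. Rrm1 turned to -0.21 with the mean of probe sets and -0.22 with the second. With the array number as a replicate block, members called numbered 3 for spleen IKDC minus CDC, 5 for spleen NK minus CDC, 9 and 5 for the same contrasts in lymph node, and 9 for lymph node minus spleen IKDC; calls were unchanged at 0 in the other comparisons. The replicate block as additive sets over both organs gave 2 calls for IKDC minus CDC and 9 for NK minus CDC, with medians of 0.42 for IKDC minus NK, -0.13 for IKDC minus CDC and -0.54 for NK minus CDC, and turned Stmn1 (0.054), Mad2l1 (0.064) and Plk1 (0.46) for IKDC minus NK.

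The members' median of NK minus CDC in spleen was -0.16 with the filter at the 60th percentile, -0.21 with the mean of probe sets and -0.22 with the second probe set. In lymph node, IKDC minus CDC was -0.80 with the offset of 32, -0.60 with the stricter filter, -0.68 with the mean and -0.63 with the second probe set, and NK minus CDC was -0.82 as deposited, -0.63, -0.59, -0.48 and -0.33 under the same 4. The interaction medians became -0.61 for IKDC minus NK with the stricter filter, -1.14, -1.10, -0.86 and -1.01 for IKDC minus CDC under those 4, and -0.44 as deposited, -0.50 after the shift, -0.26 with the offset of 32 and -0.21 with the second probe set for NK minus CDC. Within each array set, the deposited and shifted scales kept the sign of all 9 medians.

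Single genes named at the small end of a comparison turned sign. Mcm4 for lymph node minus spleen IKDC was -0.14 as deposited, -0.25 after the shift, -0.53 with the mean and -1.09 with the second probe set; in NK it was -0.018 and -0.39, and in CDC -0.34 and -1.23, with the mean and second probe sets. With the mean of probe sets, Stmn1 for spleen IKDC minus NK was 0.073, and the interaction terms of Tacc3 (IKDC minus CDC) and Mcm3 (NK minus CDC) were -0.48 and -0.058. With the second probe set these 3 were 0.20, -1.02 and -0.88, Tacc3 for spleen IKDC minus CDC was 0.16, E2f1 for lymph node IKDC minus NK -0.22, Bub1 for lymph node minus spleen NK 0.057, Cdc20 for lymph node minus spleen CDC -0.29 and the Racgap1 interaction for IKDC minus NK -0.42.

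Without single spleen arrays, medians ran from -0.18 to 1.64 for spleen IKDC minus NK, -0.60 to 1.29 for IKDC minus CDC and -1.14 to 0.37 for NK minus CDC, and for the interactions from -1.71 to 0.19, -2.27 to -0.46 and -1.25 to 0.34 in the same order. The lymph node minus spleen medians ran from -2.65 to -0.71 in IKDC, -1.49 to -0.08 in NK and -0.999 to 0.47 in CDC. Ranges that crossed 0 were -0.80 to 0.43 in Cdt1 and -0.53 to 0.42 in Stmn1 for spleen IKDC minus NK, -1.55 to 0.14 in Tacc3 for spleen IKDC minus CDC, -0.61 to 0.68, -0.050 to 0.77 and -0.16 to 1.24 in Mcm4 for lymph node minus spleen IKDC, NK and CDC, -1.38 to 0.18 in Mcm6 for IKDC, and -0.65 to 0.45 in Mad2l1 for NK. Among interaction terms they were -0.20 to 0.79 in Racgap1 and -0.15 to 0.80 in Stmn1 for IKDC minus NK, and -0.040 to 0.49 in Pcna and -0.71 to 0.98 in Tacc3 for IKDC minus CDC. Leaving out 1 array unbalances the array numbers, so the difference between spleen arrays 1 and 2 enters these cell type and organ values. Settings other than leaving out an array differ by construction in the genes, probe sets or scale used, and the cause of each move was not tested. With 1 array a lymph node group and 2 a spleen group, small differences could not be told from the spread between arrays.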
